A study of Mus musculus with 14 samples.

Results

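Cholesterol handling genes of the liver were followed in 33 genes chosen by name: the regulators of the SREBP pathway, the enzymes of cholesterol synthesis, and the genes of cholesterol uptake, transport, esterification and efflux. Of these 33 genes, 30 had a named row among the 19505 genes of the array table, and all 30 are described below. Acat2, Tm7sf2 and Soat2 were not analysed here. The choice of genes used no measured value, but it was made with earlier results of these data known.

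All mice were male, of C57BL/6 background, and carried homozygous floxed alleles of both AMPK catalytic subunit genes, Prkaa1 and Prkaa2, so that Cre recombinase can cut part of each gene out. A high-fat diet (60% of calories) was begun at 6 weeks of age and the virus was given after 4 weeks of it. The control group (6 samples) received AAV8-TBG-empty vector, and the knockout group (8 samples) received AAV8-TBG-Cre, in which the TBG promoter directs Cre to hepatocytes and leaves the other liver cells with intact alleles. For the last 3 weeks both groups were given the antidiabetic drug metformin daily (50 mg/kg), and food was withheld for 16 h before the liver was taken; the labels give an age of 4 months. Livers without metformin were not analysed here, so the comparison is knockout against control with the drug present in both. The study's title asks how far AMPK, an energy-sensing kinase, matters when metformin lowers the liver's glucose output. Whether each sample is a mouse of its own is not stated in the labels, so the p-values measure the spread between samples, and part of that spread may be technical.

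Cholesterol is made in the liver from acetyl-CoA through mevalonate and farnesyl diphosphate, which feeds squalene and then the sterols. When sterols are scarce in the endoplasmic reticulum, the chaperone SCAP carries the transcription factor SREBP2 to the Golgi, where it is cleaved and freed to activate the synthesis genes, and when sterols are plentiful INSIG proteins hold SCAP back. Export runs through ATP-binding cassette transporters that the oxysterol receptors LXR activate. As background from biochemistry, AMPK phosphorylates and inhibits enzymes of lipid synthesis; RNA levels do not measure that.

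The 14 arrays formed 2 sets, not named in the labels, each with 3 control and 4 knockout samples (control 1 to 3 and knockout 1 to 4 in set 1). Correlations between arrays over all rows were 0.988 to 0.994 within a set and 0.951 to 0.963 across sets. The set was therefore a term in the limma fit, and differences below are log2 values of knockout minus control ± SE from that fit, with p-values adjusted by Benjamini-Hochberg over all 19505 genes and a threshold of 0.05. Without the set term limma called 0 of the 19505 genes (0%), and 655 (3.36%) had an unadjusted p under 0.05. Of the 30 cholesterol genes 0 passed in that fit and 7 had an unadjusted p under 0.05 (smallest adjusted p = 0.519). Control 1 and control 4 had scores of 23.0 and 22.1 on the second principal component, outside the range of the remaining 12 arrays (-13.8 to 8.36). The targeted genes were lower in every knockout sample than in any control of the same set, with Prkaa2 at 45.8% (adjusted p = 1.92e-06) and Prkaa1 at 62.9% (adjusted p = 0.0302) of the control level. In whole liver, fewer cells of a type and less RNA per cell cannot be told apart. None of the markers of 6 liver cell classes passed the threshold. The median difference was 0.00 for 6 measured of 8 listed hepatocyte markers, -0.01 for liver endothelium, -0.14 for stellate cells, 0.09 for Kupffer cells, -0.04 for bile duct epithelium and 0.15 for leukocytes and erythroid cells. Without control 1 and control 4 it was -0.27 for endothelium and -0.14 for Kupffer cells.

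Of 16 measured cholesterol synthesis genes 14 had a negative difference, of which 1 passed the threshold, and of 4 efflux transporters 3 had one and 0 passed. Whether synthesis and efflux genes differed from each other was not tested. The 2 synthesis genes without a negative difference were Hsd17b7 and Sc5d, and Sc5d, at 0.00, turned to -0.02 with quantile normalization. Of the 30 genes, 24 had a negative difference, against 49.4% of all genes, and their median difference was -0.22, against 0.00 over all genes. At the threshold 1 gene fell, the mevalonate pathway gene Mvd, and 1 rose, the sterol enzyme gene Hsd17b7, where 0.272% of all genes were called lower and 0.431% higher. At an unadjusted p under 0.05, 14 of the 30 were lower and 1 was higher, against 4.83% and 5.53% of all genes. The synthesis genes shifted together between arrays: relative to their set's control mean they averaged -0.52 in control 1 and 0.40 in control 3. Such counts, above and below, are therefore not counts of independent genes. Among the roles, the median difference was -0.50 for 6 enzymes from acetoacetyl-CoA to farnesyl diphosphate, -0.28 for 10 sterol enzymes, -0.24 for 4 SREBP regulators, -0.08 for 6 uptake and transport genes and -0.08 for 4 efflux genes. Without knockout 5 the uptake and transport median was -0.04, and without control 1 and control 4 the sterol enzyme and efflux medians were -0.43 and -0.04. The same medians in set 1 and set 2 were -0.50 and -0.50, -0.33 and -0.21, -0.25 and -0.24, -0.07 and -0.10, and -0.03 and -0.14. The differences between the sets in the knockout effect passed limma's interaction test for 0 of the 30 genes and for 0 of all genes (0%). At an unadjusted p under 0.05 were 943 of all genes (4.83%) and 1 of the 30, Npc2.

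**Figure D1:**
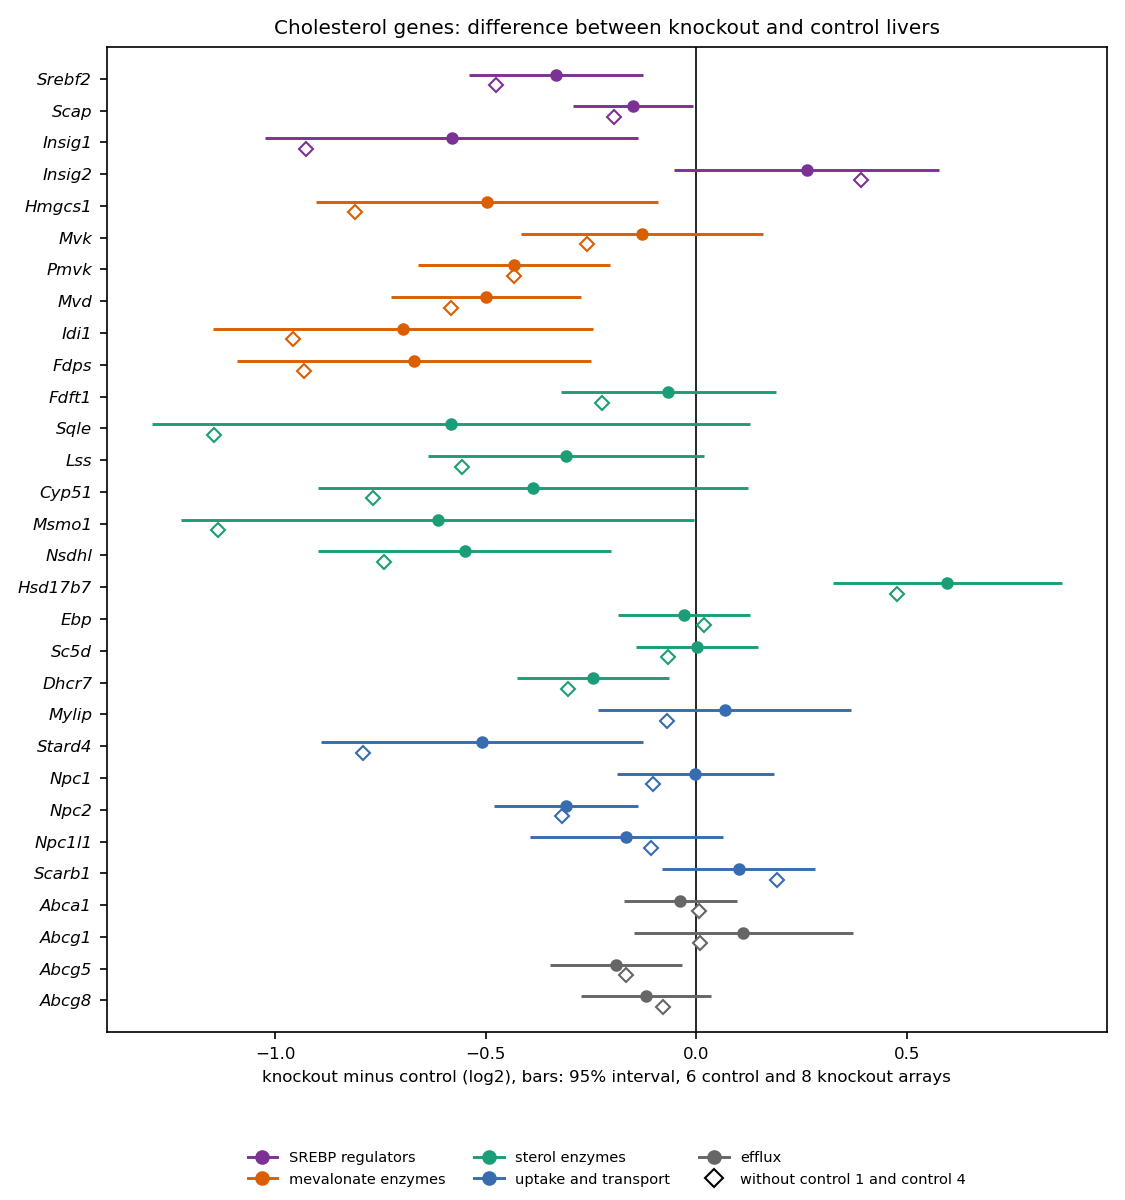
Knockout minus control difference in log2 for each of the 30 measured genes (rows, coloured by role), with filled points and 95% intervals from the 6 control and 8 knockout arrays and open diamonds for the estimate without control 1 and control 4. Most synthesis genes lie left of 0, Hsd17b7 lies right of it at 0.60, and the 4 efflux genes lie between -0.19 and 0.11.

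The upstream sequences of 4 of these genes are shown because SREBP2 is known to act at sterol regulatory elements beside NF-Y boxes (CCAAT). Hmgcs1 holds the core letters of that element (TCACNCCAC), and Insig1 only a shorter form of them (CACNCCAC). Whether either match is a working element was not tested. The other 2 genes, Mvd and Hsd17b7, changed in opposite directions. Hmgcs1 was taken by a rule on the motif, and the other 3 were chosen after their values were seen. Each run is the 250 bases before the gene start in RefSeq on GRCm38.p6, read 5′ to 3′ on the gene's strand, at chr13:119690101-119690350 (+) for Hmgcs1, chr5:28071162-28071411 (+) for Insig1, chr8:122443423-122443672 (-) for Mvd and chr1:169969206-169969455 (-) for Hsd17b7. Capitals mark the letters TCACNCCAC or CACNCCAC, and CCAAT, each on either strand (CCAAT reads ATTGG on the other strand).
Hmgcs1: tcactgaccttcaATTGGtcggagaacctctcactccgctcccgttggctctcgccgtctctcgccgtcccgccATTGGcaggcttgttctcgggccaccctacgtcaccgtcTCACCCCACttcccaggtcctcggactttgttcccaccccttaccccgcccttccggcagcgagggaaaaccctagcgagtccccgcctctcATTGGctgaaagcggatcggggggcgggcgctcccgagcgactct
Insig1: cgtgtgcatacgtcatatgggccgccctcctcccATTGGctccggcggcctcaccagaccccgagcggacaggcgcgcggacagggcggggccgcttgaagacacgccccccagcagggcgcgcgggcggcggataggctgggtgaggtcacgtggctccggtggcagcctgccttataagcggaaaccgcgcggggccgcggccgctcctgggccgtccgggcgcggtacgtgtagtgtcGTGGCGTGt
Mvd: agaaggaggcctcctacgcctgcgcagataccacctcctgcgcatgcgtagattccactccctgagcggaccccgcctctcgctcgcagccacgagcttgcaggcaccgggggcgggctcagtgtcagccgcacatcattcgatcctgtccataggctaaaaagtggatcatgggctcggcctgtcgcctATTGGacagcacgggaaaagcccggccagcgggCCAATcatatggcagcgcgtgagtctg
Hsd17b7: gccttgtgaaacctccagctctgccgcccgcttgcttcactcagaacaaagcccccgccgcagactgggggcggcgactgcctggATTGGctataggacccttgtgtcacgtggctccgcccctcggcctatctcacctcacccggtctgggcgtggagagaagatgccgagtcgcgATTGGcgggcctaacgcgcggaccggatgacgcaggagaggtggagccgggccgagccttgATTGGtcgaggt
Hmgcs1 holds TCACCCCAC from 137 to 129 bases before the start, with the nearest CCAAT matches ending 172 and starting 45 bases before the start. Insig1 holds only the shorter form, 9 to 2 bases before its start, and its only CCAAT match lies 216 to 212 bases before the start. Mvd and Hsd17b7 hold neither form, and carry 2 and 3 CCAAT matches. Only these exact letters were searched for, so the lack of a match does not show that no sterol regulatory element is there.

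RefSeq promoters (250 bases before to 50 after the start) were matched for 23 of the 30 measured genes. TCACNCCAC was found in 1 of the 23 genes, against 1.24% of all 32841 promoters and 1.44% of 27018 genes of the table, and CACNCCAC, which every TCACNCCAC match also contains, in 2, against 6.24% of promoters and 7.12% of genes. CCAAT was found in 21 of the 23, against 37.4% of promoters and 41.1% of genes, and the GC box GGGCGG in 19, against 35.7% and 38.2%. The E-box CACGTG was found in 6 of the 23 (Scap, Insig1, Hsd17b7, Sc5d, Dhcr7 and Abca1), against 7.15% and 8.09%. All kinds of RefSeq genes are in the table, so these shares describe the letters and are not a matched comparison.

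The SREBP regulators comprise the transcription factor gene Srebf2, which encodes SREBP2, its escort Scap, and the retention factors Insig1 and Insig2. Srebf2 read 8.27, 8.58 and 8.62 in control 1 to 3 and 8.38, 8.13, 8.15 and 8.02 in knockout 1 to 4 of set 1, and 9.12, 9.71 and 9.59 in control 4 to 6 and 9.18, 9.11, 9.23 and 9.00 in knockout 5 to 8 of set 2. All 8 knockout samples lay below the mean of their set's controls, but the lowest control of each set, control 1 and control 4, lay among the knockout samples. Here and below, the share of all genes with all 8 on the same side of that mean is not given. The difference was -0.33 ± 0.10 (79.4% of control, adjusted p = 0.163), which did not pass.

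Insig1, itself a known SREBP target that is induced when synthesis is on, read 8.51, 9.61 and 10.09 in the controls and 8.54, 8.65, 9.09 and 8.48 in the knockout samples of set 1, and 9.04, 9.68 and 9.88 in the controls and 8.88, 9.40, 9.25 and 8.80 in the knockout samples of set 2. Control 1 and control 4 again lay among the knockout samples of their sets, and the other 4 controls lay above every knockout sample of their set. The difference was -0.58 ± 0.21 (adjusted p = 0.293). Insig2, the family member known not to depend on SREBP in the same way, had a positive difference without passing, at 0.26 ± 0.15 (adjusted p = 0.590). Its difference was 0.51 in set 1, where control 3 was low at 8.68 against 9.67 and 9.61 in the other controls, and 0.01 in set 2. Without control 3 the difference over both sets was 0.09 ± 0.09 (adjusted p = 0.813). Scap differed by -0.15 ± 0.07 (adjusted p = 0.442).

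The early enzymes lead from acetyl units to the isoprenoid farnesyl diphosphate. All 6 measured genes had negative differences, 5 of them at an unadjusted p under 0.05, and 1 fell past the threshold. Over all genes 49.4% had a negative difference, 4.83% were lower at that unadjusted p and 0.272% were lower at the threshold. Mvd, mevalonate diphosphate decarboxylase, which makes isopentenyl diphosphate, read 6.91, 7.16 and 7.43 in the controls and 6.53, 6.90, 6.78 and 6.54 in the knockout samples of set 1. In set 2 it read 6.90, 7.34 and 6.69 in the controls and 6.37, 6.44, 6.48 and 6.55 in the knockout samples. It was the only 1 of the 30 genes whose groups did not overlap within either set with all knockout samples lower, where 0.538% of all genes did so; none of the 30 had all knockout samples higher, against 0.774% of all genes.

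Mvd fell by 0.50 ± 0.11 on the log2 scale (70.7% of control, adjusted p = 0.0438; -0.48 in set 1 and -0.52 in set 2). The call was close to the threshold. It held when control 1, control 6 or knockout 2 was left out and was lost when any other single array was (adjusted p up to 0.0986). It was also lost with knockout 5 averaged with 7 and 6 with 8, which share numbers in their descriptions, and without knockout 7 and 8.

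Pmvk, the phosphomevalonate kinase gene acting just before Mvd, read 8.77, 8.96 and 9.30 in the controls and 8.43, 8.52, 8.64 and 8.75 in the knockout samples of set 1, with no overlap. Its set 2 values were 7.91, 7.39 and 7.73 in the controls and 7.10, 7.54, 7.06 and 7.27 in the knockout samples, where knockout 6 lay above control 5. The difference of -0.43 ± 0.11 did not pass (adjusted p = 0.0893). It was nearly the same without control 1 and control 4 (-0.43 ± 0.12).

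The other 4 early genes were Idi1, the isopentenyl diphosphate isomerase (-0.70 ± 0.21, adjusted p = 0.195), Fdps, the farnesyl diphosphate synthase (-0.67 ± 0.20, adjusted p = 0.175), Hmgcs1, the cytosolic HMG-CoA synthase (-0.50 ± 0.19, adjusted p = 0.346) and Mvk, the mevalonate kinase (-0.13 ± 0.14, adjusted p = 0.822). For Idi1, Fdps and Hmgcs1 all 8 knockout samples lay below the mean of their set's controls, and for Mvk 7 did. Hmgcs1 showed how much the controls themselves varied, at 8.83 in control 1 against 10.12 and 10.08 in control 2 and 3. The 4 knockout samples of that set, from 8.93 to 9.46, lay between them.

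**Figure D2:**
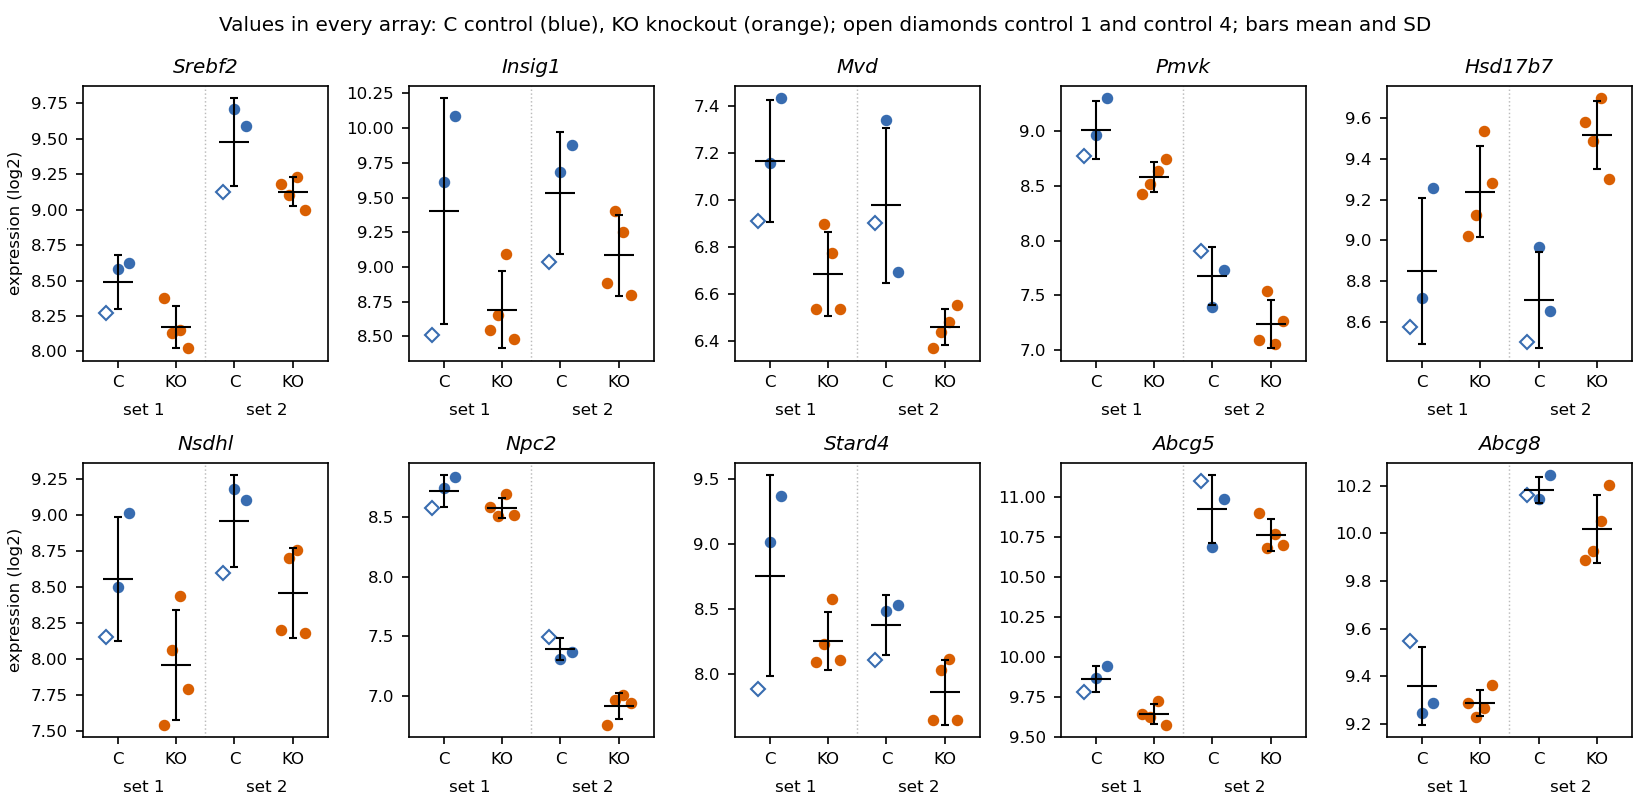
Log2 expression in every array for 10 genes, with set 1 left and set 2 right of the dotted line, controls in blue, knockout samples in orange, control 1 and control 4 as open diamonds, and the mean with SD for each group (n = 3 controls and 4 knockout samples in each set). Mvd has no overlap between groups in either set, and Hsd17b7 is higher in the knockout samples of set 2 than in any control there. For Srebf2, Insig1, Hsd17b7, Nsdhl and Stard4 the open diamonds are the lowest controls.

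Squalene formation and the steps after it turn farnesyl diphosphate into cholesterol. Of 10 measured sterol enzyme genes, 8 had negative differences, none of which passed, and 1 rose. Hsd17b7 encodes the 3-ketosteroid reductase that works with Nsdhl in removing the C4 methyl groups of sterols, and it also acts on estrogens. In set 1 it read 8.58, 8.72 and 9.25 in the controls and 9.02, 9.12, 9.53 and 9.28 in the knockout samples, so that control 3 lay above 2 knockout samples. The set 2 values were 8.51, 8.97 and 8.66 in the controls and 9.58, 9.48, 9.69 and 9.30 in the knockout samples, with no overlap.

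Hsd17b7 rose by 0.60 ± 0.13 (1.51-fold, adjusted p = 0.0439), and all 8 knockout samples were above the mean of their set's controls. The rise was 0.39 in set 1 and 0.80 in set 2, a difference the interaction test did not call (unadjusted p = 0.107). The call held when control 3 or knockout 1 was left out and was lost when any other single array was (adjusted p up to 0.109). It was also lost with knockout 5 averaged with 7 and 6 with 8, and without knockout 7 and 8. Without control 1 and control 4 together the difference was 0.48 ± 0.14 (adjusted p = 0.203). Each was the lowest control of its set for Hsd17b7, so leaving them out makes the rise smaller by construction, and keeping them makes it larger.

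Nsdhl, the sterol dehydrogenase that acts beside Hsd17b7 in the same complex, had the opposite sign. It read 8.16, 8.50 and 9.01 in the controls and 7.54, 8.06, 8.44 and 7.79 in the knockout samples of set 1. In set 2 it read 8.59, 9.18 and 9.11 in the controls and 8.20, 8.70, 8.76 and 8.18 in the knockout samples. All 8 knockout samples lay below their set's control mean, with control 1 and control 4 the lowest controls, and the difference of -0.55 ± 0.16 did not pass (adjusted p = 0.181).

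The remaining sterol genes differed in how much they varied between arrays. Msmo1, the C4 methyl oxidase (-0.61 ± 0.29), Sqle, the squalene epoxidase gene known as a control point of the pathway (-0.58 ± 0.33), Cyp51, the lanosterol demethylase (-0.39 ± 0.24), and Lss, the lanosterol synthase (-0.31 ± 0.15), had large SE and did not pass (adjusted p from 0.478 to 0.634). Sqle ranged from 5.87 to 7.87 in the controls of set 1 and from 5.02 to 6.77 in those of set 2, and its SE was larger than that of 99.8% of all genes. Those of Msmo1 and Cyp51 were larger than 99.7% and 99.4%. Dhcr7, which carries out the last reduction to cholesterol in a branch of the pathway, differed by -0.24 ± 0.09 (adjusted p = 0.274).

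Fdft1, the squalene synthase (-0.07 ± 0.12, 95% interval -0.32 to 0.19), Ebp, the sterol isomerase (-0.03 ± 0.07, 95% interval -0.19 to 0.13), and Sc5d, the sterol desaturase (0.00 ± 0.07, 95% interval -0.14 to 0.15), were near 0. Ebp and Sc5d had narrow intervals, and for Sc5d all 14 values lay within 11.46 to 11.80 in set 1 and 12.07 to 12.26 in set 2. The small values of Ebp and Sc5d changed sign when control 1 and control 4 were left out (0.02 and -0.07).

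Uptake and transport genes affect how cholesterol moves into the cell, between its membranes and out of lysosomes. Of 6 genes 4 had negative differences and none passed. The sign does not mean the same for all 6, since Mylip acts against uptake. Stard4, a carrier of sterol between membranes and a known SREBP2 target, read 7.89, 9.01 and 9.37 in the controls and 8.10, 8.23, 8.58 and 8.11 in the knockout samples of set 1. Its set 2 values were 8.11, 8.49 and 8.53 in the controls and 7.65, 8.03, 8.12 and 7.65 in the knockout samples. Control 1 was the lowest of the 7 arrays of set 1 for this gene, and control 4 lay among the knockout samples of set 2. The difference was -0.51 ± 0.18 (adjusted p = 0.286). Without control 1 it was -0.70 and passed (adjusted p = 0.0411), in a fit that called 17 of all 19505 genes lower. Leaving out the lowest control enlarges the difference by construction. The gene passed in no other fit that left out a single array.

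Npc2, the soluble lysosomal protein that hands cholesterol to the membrane protein Npc1, read 8.58, 8.74 and 8.84 in the controls and 8.58, 8.51, 8.69 and 8.52 in the knockout samples of set 1. The set 2 values were 7.50, 7.31 and 7.37 in the controls and 6.76, 6.96, 7.01 and 6.94 in the knockout samples. The groups overlapped in set 1 and did not in set 2, with differences of -0.14 and -0.48. The pooled difference of -0.31 ± 0.08 did not pass (adjusted p = 0.111), and the difference between the sets had an unadjusted p of 0.0350 (limma interaction, adjusted p = 0.998).

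Npc1 itself was at 0.00 ± 0.09 (95% interval -0.19 to 0.18). Scarb1, the receptor that takes up cholesterol from high-density lipoprotein, was at 0.10 ± 0.09 (95% interval -0.08 to 0.28), and Mylip, an LXR-induced ubiquitin ligase that degrades lipoprotein receptors, at 0.07 ± 0.14. Npc1l1, known as the sterol importer of the intestine, differed by -0.17 ± 0.11 (adjusted p = 0.652), but all its values, 3.24 to 3.96, lay below every array median (5.82 to 5.97). No background level was given for these arrays, and such a dim row may hold no signal of the gene.

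Efflux genes export cholesterol: Abca1 and Abcg1 to lipoproteins, and the Abcg5 and Abcg8 pair, which work as a dimer, into bile. None of the 4 passed. Abcg5 read 9.78, 9.86 and 9.94 in the controls and 9.64, 9.62, 9.73 and 9.58 in the knockout samples of set 1, with no overlap. In set 2 it read 11.10, 10.69 and 10.98 in the controls and 10.90, 10.68, 10.77 and 10.70 in the knockout samples, where control 5 lay among the knockout samples. The difference was -0.19 ± 0.07 (adjusted p = 0.349).

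Abcg8 read 9.55, 9.25 and 9.29 in the controls and 9.29, 9.23, 9.27 and 9.36 in the knockout samples of set 1, and 10.16, 10.15 and 10.25 in the controls and 9.89, 9.93, 10.05 and 10.20 in the knockout samples of set 2. The groups overlapped in both sets, with a difference of -0.12 ± 0.07 (adjusted p = 0.629). Abca1, the LXR target that loads nascent high-density lipoprotein, was at -0.04 ± 0.06 (95% interval -0.17 to 0.10), an interval narrower than those of the synthesis genes, and Abcg1 at 0.11 ± 0.12 (95% interval -0.15 to 0.37).

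Control 1 and control 4 were low for most synthesis genes. Of the 16 synthesis genes measured, control 1 was the lowest of its set's 3 controls for 15 and control 4 for 13, where over all genes control 1 was lowest for 35.5% and control 4 for 33.2%. Averaged over the 16 genes and taken relative to the control mean of the set, control 1 was at -0.52 and its fellow controls at 0.12 and 0.40, while knockout 1 to 4 were at -0.54, -0.39, -0.11 and -0.51. Control 4 was at -0.31 and its fellows at 0.25 and 0.06, while knockout 5 to 8 were at -0.33, -0.05, -0.16 and -0.47. Both controls thus lay within the range of the knockout samples of their sets.

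Without control 1 and control 4 the median difference of the synthesis genes was -0.57 instead of -0.41. Both arrays were the lowest control of their set for most of these genes, so the median moves down by construction. In that fit 5 of the 30 genes were lower at the threshold (0.0615% of all genes) and 0 higher (0.0718%). The 5 were Msmo1 (-1.14 ± 0.18, adjusted p = 0.0339), Stard4 (-0.79 ± 0.13, adjusted p = 0.0339), Insig1 (-0.93 ± 0.16, adjusted p = 0.0355), Hmgcs1 (-0.81 ± 0.14, adjusted p = 0.0400) and Srebf2 (-0.48 ± 0.08, adjusted p = 0.0404). Mvd was at -0.58 ± 0.12 (adjusted p = 0.0662) and Sqle at -1.15 ± 0.25 (adjusted p = 0.0875). For the 5 genes and Sqle, control 1 and control 4 were each the lowest control of their set, so leaving them out enlarges those differences by construction. For Mvd the lowest control of set 2 was control 6. With only 4 controls left, each of the 5 calls was lost when most further single arrays were left out: Msmo1 kept it for 4 of the 12 remaining arrays, Insig1 and Stard4 for 3, Hmgcs1 for 2 and Srebf2 for 1 (adjusted p up to 0.145).

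Markers of some other liver cells were low in these arrays too. Relative to their set's control mean, the 10 liver endothelium markers averaged -0.65 in control 1 and -0.43 in control 4, with the knockout samples from -0.32 to 0.23. The summed log2 level of the list ran from 69.1 to 81.2 in the controls and from 72.4 to 81.3 in the knockout samples. Such sums are taken over the arrays of both sets, so their ranges also hold the gap between the sets. The 10 Kupffer cell markers averaged -0.57 in control 1 and -0.30 in control 4, with the knockout samples from -0.44 to 0.42, so that control 4 lay within them. Their sums were 79.8 to 89.0 in the controls and 81.1 to 89.5 in the knockout samples. The 8 stellate cell markers averaged -0.27 in control 1 and -0.07 in control 4, both within the knockout samples (-0.35 to 0.20). In the same arrays the 4 measured bile duct markers averaged -0.43 and -0.09, with the knockout samples from -0.42 to 0.73. The 5 measured leukocyte and erythroid markers averaged -0.07 and -0.03, within the knockout samples (-0.11 to 0.36). The 6 measured hepatocyte markers averaged 0.07 and 0.03, with the knockout samples from -0.02 to 0.02. No marker is at 0 on this scale, and the part of these cells in the results was not tested.

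**Figure D3:**
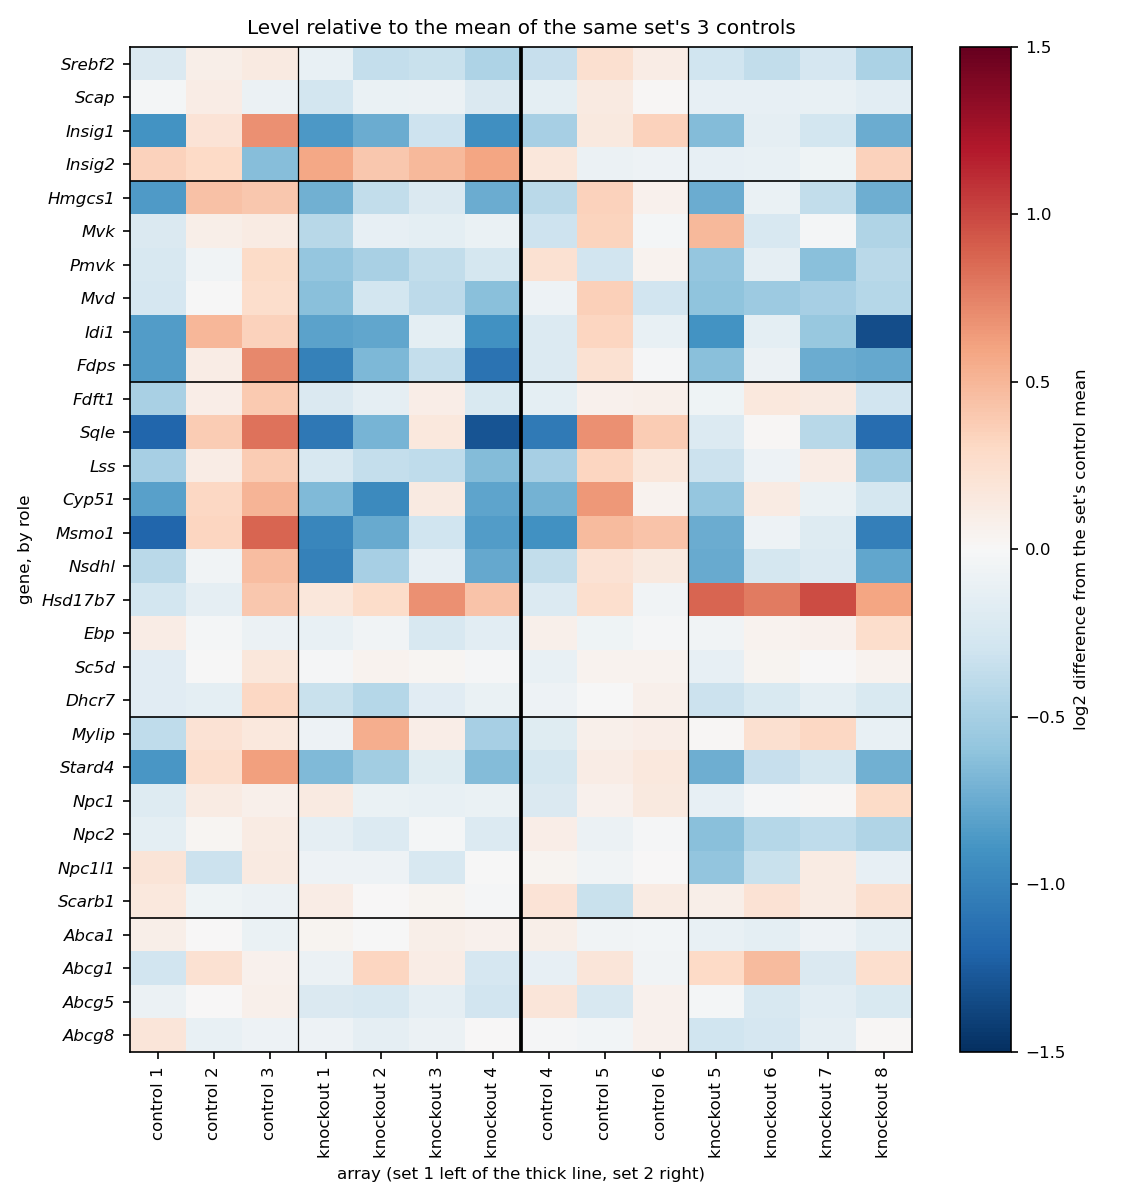
Level of each of the 30 genes (rows, by role) in each array (columns, set 1 left of the thick line), as the log2 difference from the mean of the 3 controls of the same set, with blue for lower and red for higher. Values run from -1.33 to 0.98, control 1 and control 4 are blue for most synthesis genes, and Hsd17b7 is red in all 8 knockout samples.

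Other genes of the pathway, from a separate list of 33 of which 26 were measured, were mixed in direction: 9 had a negative difference, the median was 0.02, and none passed the threshold in either direction (0.272% and 0.431% of all genes did). At an unadjusted p under 0.05, 2 of the 26 were lower and 3 higher, against 4.83% and 5.53% of all genes. The lower values closest to the threshold were Aacs, the cytosolic acetoacetyl-CoA synthetase that feeds the pathway (-0.61 ± 0.19, adjusted p = 0.208), Tmem97, a sterol-regulated membrane protein (-0.25 ± 0.11, adjusted p = 0.403) and Rnf145, a sterol-responsive ubiquitin ligase (-0.16 ± 0.09, adjusted p = 0.612). The higher ones were Nceh1, a neutral cholesteryl ester hydrolase (0.35 ± 0.08, adjusted p = 0.0682), Stard5, a sterol-binding carrier (0.24 ± 0.07, adjusted p = 0.153) and Gramd1b, which moves sterol from the plasma membrane to the endoplasmic reticulum (0.19 ± 0.09, adjusted p = 0.454).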

How the data were processed

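Liver RNA of 14 samples was labelled with the WT PLUS kit and hybridised to Affymetrix arrays. The values the authors deposited are log2 expression values. RMA and Partek appear in the submitters' processing notes, with no version or role, and the log2 scale was inferred from the values (2.13 to 13.8). They were used without further normalization. Arrays have no read depth, and their number limits the precision.

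Of 22206 rows, 19572 had 1 symbol in GEO's platform annotation. Where a gene had several rows (55 genes) its brightest row was taken, leaving 19505 genes and no filter. The array sets came from average-linkage clustering of correlations. Groups were compared with limma 3.58.1 (R 4.3.3), lmFit and eBayes, with group and set as terms and 11 residual degrees of freedom, two-sided. The fit was tested on simulated data. Knockout 7 and 8 carry the same number in their descriptions as knockout 5 and 6. No arrays were identical, and each was counted as a sample. Repeat arrays of the same liver would differ too, so that check cannot show whether these are separate livers.

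The genes, lists, set term and alternatives were chosen with earlier results of these data known. Every measured gene of the list is given. Values in every array are printed for genes past the threshold and the 2 with the smallest p in each role. Of the other pathway genes, those past the threshold and the 3 with the smallest p in each direction are named.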

Additional observations from a re-analysis of the deposited data

Results flagged for a closer look

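In each group of 6 controls and 8 knockout samples, with the fitted set difference taken off, the highest and lowest array of every gene was compared with the rest by its gap to the nearest array as a share of the group's range. Of 60 groups 4 stood out by Dixon's 95% limit, and chance flags about 1 in 20 groups. Insig2 was low in control 3, with a gap of 0.766 of the range (8.68 against the next value of 9.52). Npc1l1 was low in control 2 (0.675; 3.32 against 3.67), a gene whose values all lay below the array medians. Mvk was high in knockout 5 (0.539; 7.45 against 6.94). Sc5d was low in knockout 5 (0.529; 11.51 against 11.60).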

How the results depend on the processing

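Median differences of the roles kept their sign under the alternatives run. They moved by over the spread between arrays only for efflux in set 1 alone (-0.026), set 2 alone (-0.14) and with the replicate block without the set term (-0.26), and for the SREBP regulators with that block (-0.42). The uptake and transport median moved less than that spread but by over 1.5 times, to -0.15 without knockout 7 and 8, -0.17 and -0.16 with the replicate block with and without the set term, and -0.0019 with only the brighter genes tested, and ran from -0.11 to -0.042 without single arrays. The counts of calls did not hold; in what follows each group of counts gives the cholesterol genes lower and higher and then all genes lower and higher, where the fit with the set term gave 1, 1, 53 and 84. They were 0, 0, 0 and 0 without the set term, 0, 0, 1 and 1 in set 1 alone, 0, 0, 2 and 0 in set 2 alone, and 5, 0, 12 and 14 without control 1 and control 4. They were 0, 0, 22 and 45 with knockout 5 averaged with 7 and 6 with 8, and 0, 0, 4 and 8 without knockout 7 and 8. The samples share only replicate numbers (correlations of same-numbered arrays 0.02 to 0.09, none best with its own number): with the replicate block and the set term the counts were 0, 0, 1 and 1, and with the replicate block without the set term 0, 0, 1 and 0. They were 3, 1, 101 and 169 with only the brighter genes tested (Pmvk and Npc2 then passed, adjusted p = 0.0371 and 0.0384), 3, 1, 124 and 201 with trend and robust eBayes (Srebf2 and Pmvk, adjusted p = 0.0433 and 0.0178), 2, 1, 96 and 146 at an adjusted p under 0.1, and 0, 0, 3 and 15 under 0.01. Array weights gave 0 cholesterol genes higher, and with quantile normalization, median centring or the mean of all rows of a gene each count stayed within 1.5 times. Leaving out single arrays gave 0 to 2 cholesterol genes lower, 0 to 1 higher, 14 to 48 genes lower and 30 to 84 higher over all genes. Without control 1 and control 4 and with no set term, added after seeing the data, 0 genes passed (653 at an unadjusted p under 0.05).

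Signs turned only for genes near 0, none past the threshold: Abca1 in set 1 alone (0.046) and without control 1 and control 4 (0.0059); Ebp in set 2 alone (0.084), without those controls (0.019) and with the replicate block without the set term (0.076); Npc1 in set 2 alone (0.041) and with median centring (0.0014); Mylip without those controls (-0.070) and with that block (-0.092); and Scarb1 with that block (-0.087). Sc5d turned in set 2 alone (-0.0067), without those controls (-0.068), without knockout 7 and 8 (-0.010), with the replicate block (-0.028 with and -0.10 without the set term) and with quantile normalization (-0.016). Without single arrays Ebp ran from -0.064 to 0.010, Fdft1 from -0.17 to 0.026, Mylip from -0.011 to 0.15, Npc1 from -0.054 to 0.031 and Sc5d from -0.035 to 0.039. The cause of these changes was not tested.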

Other observations

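Many of the cholesterol genes differed between the 2 array sets by more than between the groups. The gap, set 2 minus set 1, was -1.83 for Fdps, -1.51 for Npc2 and -1.34 for Pmvk, and 1.34 for Abca1, 1.24 for Scap, 1.11 for Dhcr7, 1.10 for Npc1 and 1.09 for Abcg5. Whether these gaps are larger than those of other genes was not tested. The choice of these genes followed their values. The 4 efflux genes had a median gap of 0.93 and the 6 early synthesis genes of -0.51, so levels of these genes can be compared only within a set.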
